A study of Mus musculus with 2 samples.

Results

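The genes described here are the 10 of the NOD1 and NOD2 signalling chain, taken by symbol from both deposited tables: Nod1, Nod2, Ripk2, Xiap, Birc2, Birc3, Map3k7, Tab2, Ikbkg and Tnfaip3. All 10 were found among 24357 named genes. NOD1 and NOD2 are cytosolic receptors for fragments of bacterial peptidoglycan, and each binds the kinase RIPK2 through a caspase recruitment domain. Ubiquitin ligases of the inhibitor of apoptosis family (XIAP, and cIAP1 and cIAP2, the products of Birc2 and Birc3) attach ubiquitin chains to RIPK2, on which TAB2 with the kinase TAK1 (Map3k7) and NEMO (Ikbkg) with the IκB kinases assemble to activate NF-κB. A20 (Tnfaip3), itself induced by NF-κB, edits ubiquitin and damps the signal. In the mouse small intestine, Nod2 is best known from Paneth cells, crypt stem cells and leukocytes, and Nod1 from epithelial cells more broadly.

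Messenger RNA was sequenced in 2 libraries of 1 group: ileal epithelial cells of wildtype C57BL/6 mice, released with EDTA and sorted for EpCAM and against the leukocyte protein CD45 and the dead-cell stain 7AAD. No treatment or second genotype is labelled, so no contrast between conditions exists. Both sample titles share a prefix whose meaning, a day or otherwise, is not stated, so no time can be read from the labels. The libraries are called replicate 1 and replicate 2, and nothing in the labels says whether each came from 1 animal or from a pool. Levels are FPKM, in which fragments are divided by transcript length and by library size, so that genes can be compared per length. Every ± is the SD over both libraries (n = 2), a spread that may in part be technical.

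All 16 epithelial identity genes lay at 64.3 FPKM or more in each library. Summed over 13 T cell and intraepithelial lymphocyte markers the level was 6.60 FPKM in replicate 1, compared with 13.1 FPKM in replicate 2. Gzma alone held 2.72 and 7.29 FPKM of it, and Cd3d, Cd8b1, Ptprc, Itgae and Cd2 were lower in replicate 2. The sum was 14.1 and 12.3 FPKM over 14 myeloid markers, and 0.823 and 0.617 FPKM over 8 B and plasma cell markers. Of the myeloid markers 3 reached 1 FPKM in both libraries. Lyz2 had 5.87 and 7.08 FPKM, Itgam 3.12 and 1.90 FPKM and Cd14 2.96 and 2.01 FPKM. Most of the B and plasma cell sum was Cd79b, at 0.662 and 0.464 FPKM. The myeloid markers S100a8 and S100a9 and the B lineage markers Pax5 and Mzb1 were listed at 0 in both libraries. The libraries differed in sex-linked transcripts, with Xist at 7.91 and 0.00640 FPKM and the Y-linked Eif2s3y at 0 and 14.9 FPKM, in that order of replicates. Steps among the lowest values gave a depth of about 16200000 and 26100000 fragments. In single-transcript genes, 56.2% and 53.4% of the low values then came to a whole fragment number with a tolerance of 0.05, so fragment numbers below are approximate.

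As a set the chain was expressed at low to moderate level, with the receptors and their kinase at the bottom and the ubiquitin ligases and TAB2 at the top. At 1 FPKM or more in both libraries stood 8 of the 10 genes, against 42.3% of all 24357 genes. The exceptions were Nod1 and Nod2. The chain genes had medians of 4.34 FPKM (replicate 1) and 5.87 FPKM (replicate 2), while all listed genes had medians of 0.320 and 0.318 FPKM. By mean level their median lay at percentile 72.0 of all listed genes. Among the 10601 genes that averaged 1 FPKM or more the median was 8.54 FPKM, above that of the chain.

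**Figure D1:**
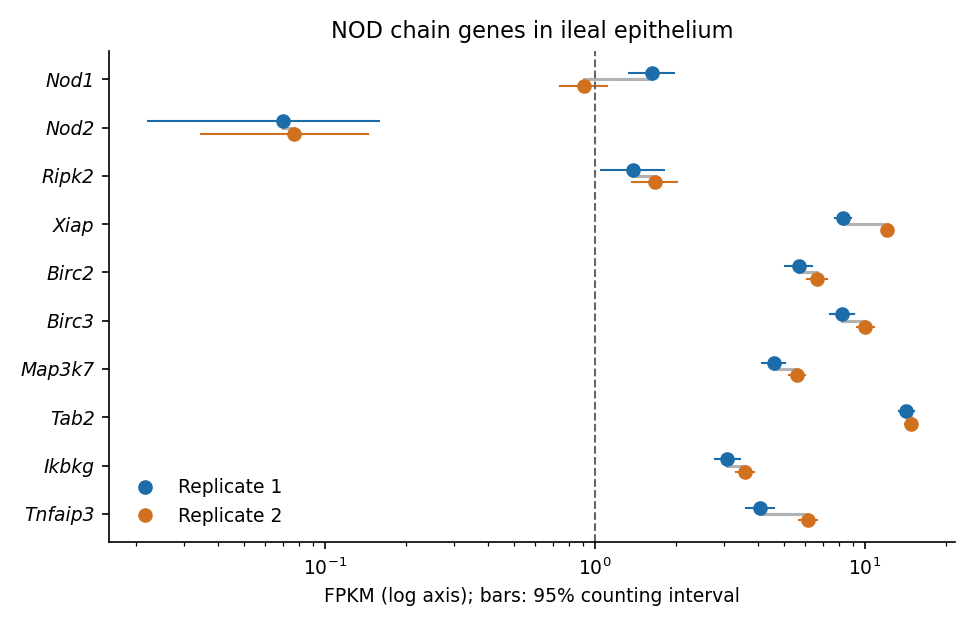
FPKM on a log axis for the 10 chain genes in replicate 1 (blue) and replicate 2 (orange), in the order of their place in the chain. Horizontal bars are 95% counting intervals and the dashed line marks 1 FPKM. Nod2 sits near 0.07 FPKM, Nod1 and Ripk2 lie around the dashed line, and the other 7 genes lie between 3.08 and 14.7 FPKM.

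Nod1, the receptor for fragments that contain diaminopimelic acid, was measured at 1.62 FPKM in replicate 1 and at 0.913 FPKM in replicate 2. Nod2, the receptor for muramyl dipeptide, had 0.0695 FPKM and 0.0765 FPKM. The values of this pair did not overlap, with Nod1 23.3 times Nod2 in replicate 1 and 11.9 times in replicate 2. On the log2(FPKM + 1) scale, which understates differences of low genes, Nod1 exceeded Nod2 by 1.06 ± 0.33. That exceeds 0.59, the 95th percentile of the difference between the libraries among the 200 genes nearest in level to Nod1. Nod2 rested on about 5 and 9 fragments, so its counting intervals ran from 0.0220 to 0.158 FPKM and from 0.0346 to 0.144 FPKM. A level above 0.158 FPKM would lie outside both. Nod1 rested on about 109 and 99 fragments. In sorted cells measured in bulk, fewer expressing cells and less RNA per cell cannot be told apart. The Paneth cell markers, from a cell type in which Nod2 is known, had medians of 1911 and 2533 FPKM in replicates 1 and 2. Of the 9 markers 8 were higher in replicate 2, as were 64.0% of genes averaging 1 FPKM or more. The median was Lyz1 in replicate 1 and, in replicate 2, Spink4, the exception. Lyz1 had 1911 and 3611 FPKM, and Spink4 3077 and 2533 FPKM.

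Nod1 is a protein-coding gene on the minus strand of chromosome 6, from 54923949 to 54972612 (GRCm38, GENCODE M21). Nod2, also protein-coding, runs on the plus strand of chromosome 8 from 88647315 to 88688474. Their transcripts share no run of more than 15 bases, a length shorter than the 50-base words compared below. Sequence from the 250 bases before each RefSeq start site is shown for the receptor pair, because the gap between these genes is the widest step among the chain's paralogs. It is written 5′ to 3′ along the gene, from RefSeq on GRCm38.p6, with CG pairs in capitals and without the 32 bases that GENCODE counts as the first exon of Nod2.
Nod1 upstream window, chr6:54972613-54972862, minus strand: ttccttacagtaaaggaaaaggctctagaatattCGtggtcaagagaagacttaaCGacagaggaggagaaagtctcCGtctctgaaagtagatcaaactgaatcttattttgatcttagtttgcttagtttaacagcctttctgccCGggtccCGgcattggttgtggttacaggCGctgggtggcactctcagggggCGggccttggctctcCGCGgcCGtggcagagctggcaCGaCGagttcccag
Nod2 upstream window, chr8:88647097-88647314, plus strand: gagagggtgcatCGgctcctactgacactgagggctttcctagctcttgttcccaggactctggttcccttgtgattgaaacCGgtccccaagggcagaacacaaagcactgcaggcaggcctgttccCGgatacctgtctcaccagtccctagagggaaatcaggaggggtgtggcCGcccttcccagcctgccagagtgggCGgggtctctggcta
The whole 250-base window held 12 CG pairs before Nod1 and 7 before Nod2, 5 of them in the printed stretch, where the median over all 32851 such windows was 6. A second Nod1 start site in the same table had 4 CG pairs before it. These counts describe the windows and were not tied to the levels by any measurement here.

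Ripk2, the kinase that both receptors recruit, was measured at 1.38 FPKM in replicate 1 and at 1.66 FPKM in replicate 2. It is found on the minus strand of chromosome 4, from 16122733 to 16163647, and its coding transcript shares no 50-base word with other genes. Ripk2 and Nod1 overlapped: the kinase was below the receptor in replicate 1 and above it in replicate 2, a difference of 0.17 ± 0.43 in log2(FPKM + 1) against a limit of 0.72. Ripk2 exceeded Nod2 by 1.23. Within the RIP kinase family Ripk2 was low. Ripk3, which acts in necroptosis, had 28.0 and 23.2 FPKM, Ripk1, the kinase of TNF receptor complexes, 9.37 and 9.49 FPKM, and Ripk4 8.48 and 9.97 FPKM. Dstyk, counted here with the family, was lower at 0.449 and 0.810 FPKM. Of the 110 other genes in the chain and its pathway lists, the nearest in level to Nod1 over both libraries were Nfkbie, Lcn2 and Traf5. The nearest to Ripk2 were Csf2, Nfkbie and Nod1. With 2 libraries of 1 group this is likeness of level alone.

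The 3 ubiquitin ligases that act on RIPK2 were each several-fold above it. Xiap had 8.30 FPKM in replicate 1, compared with 12.1 FPKM in replicate 2. Birc3 had 8.22 and 10.04 FPKM, and Birc2 had 5.67 and 6.64 FPKM. Birc2 was the lowest of the trio in both libraries, and its values did not overlap with those of the other two. The step from Birc3 to Birc2 was steady, with Birc2 minus Birc3 at -0.47 in replicate 1 and -0.53 in replicate 2, yet its mean of -0.50 stayed within the limit of 0.67 for genes of this level. Xiap minus Birc2 was 0.63 ± 0.21 against a limit of 0.72, and Xiap minus Birc3 was 0.13 ± 0.16. No pair of the trio was therefore separated by this limit. The limit is drawn from single genes compared between the libraries, not from gene differences within a library. It does not show that the levels are equal. In log2(FPKM + 1) Xiap exceeded Ripk2 by 2.13, and the differences of all 3 ligases from Ripk2 passed the limit of 0.72.

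Birc2 and Birc3 are tandem neighbours on the minus strand of chromosome 9, Birc2 from 7818227 to 7837064 and Birc3 from 7848699 to 7873186, with 11634 bases between them. The longest run that their coding transcripts share is 114 bases, inside 1 coding exon of each gene. It is shown because reads from it cannot be assigned to either gene by sequence. It lies at chr9:7821098-7821211 in Birc2 and at chr9:7854491-7854604 in Birc3 on GRCm38, and is read here from the GENCODE M21 transcripts.
Run shared by Birc2 and Birc3: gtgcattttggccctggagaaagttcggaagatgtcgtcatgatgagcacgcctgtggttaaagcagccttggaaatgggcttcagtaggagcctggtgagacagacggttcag
Of the 50-base words of the coding transcripts, 65 occur in both genes, which is 1.81% of those of Birc2 and 1.47% of those of Birc3. Birc3 shares 213 words, in part the same ones, with the processed pseudogene Gm7019, and 8.66% of its words occur in some other gene. How the counting treated such reads is not given in the sources used here. Xiap is on the X chromosome, from 42059679 to 42109656, and shares no run of more than 14 bases with Birc2 or with Birc3.

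Several other genes of proteins with a BIR domain, the fold that defines this family, lay above the trio. In the family list, which includes the trio, 10 of 11 genes reached 1 FPKM in both libraries, against 42.3% of all genes. Naip5, a flagellin receptor, led with 52.1 and 39.1 FPKM, followed by Birc5, the mitotic protein survivin, with 29.3 and 36.2 FPKM and Naip1 with 21.7 and 19.4 FPKM. The Naip genes are close copies of each other, so their single levels are uncertain. Birc6, a very large ubiquitin ligase, had 4.51 and 4.38 FPKM, below Birc2 in each library, and Birc7 was listed at 0.

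Tab2, the adaptor that binds lysine-63-linked ubiquitin chains, was the highest chain gene, at 14.2 FPKM in replicate 1 and at 14.7 FPKM in replicate 2. Map3k7, the kinase TAK1 that it carries, had 4.59 and 5.59 FPKM. Kinase minus adaptor was -1.35 ± 0.13 in log2(FPKM + 1), past the limit of 0.71, so Map3k7 stood at 0.323 of the Tab2 level in replicate 1 and 0.379 in replicate 2. Tab3, the close relative of Tab2, had 2.24 and 2.87 FPKM, and Tab1, the activating partner of TAK1, had 9.18 and 7.20 FPKM. Map3k7 occupies 31964097 to 32023467 of chromosome 4 (plus strand), and Tab2 occupies 7905653 to 7956230 of chromosome 10 (minus strand). The processed pseudogene Gm8188 holds 288 of the 50-base words of Map3k7, or 4.95%.

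Ikbkg, which encodes NEMO, the regulatory subunit that binds linear ubiquitin chains, was at 3.08 FPKM in replicate 1 and at 3.60 FPKM in replicate 2. The catalytic subunits were higher in each library: Chuk (IKKα) had 17.7 and 22.7 FPKM and Ikbkb (IKKβ) 7.09 and 6.99 FPKM. Ikbkg occupies 74393290 to 74453854 of the X chromosome (plus strand), and 418 of its exon bases, or 5.15%, overlap exons of G6pdx on the other strand. G6pdx had 20.5 and 19.6 FPKM, 6.63 and 5.43 times the level of Ikbkg. Without a stated strand setting, reads in this overlap cannot be told apart. Ikbkg also has 18 annotated transcripts, so the length behind its FPKM is less certain than for a gene such as Ripk2.

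Tnfaip3, which encodes the brake A20, was at 4.10 FPKM in replicate 1 and at 6.15 FPKM in replicate 2, on about 283 and 684 fragments. It occupies 19000910 to 19015657 of chromosome 10 (minus strand). By mean level it was not separated from Map3k7 (0.01 apart), Birc2 (0.24) or Ikbkg (0.48), and it exceeded Ripk2 by 1.26. A20 partners were present as well: Tax1bp1 had 71.4 and 73.4 FPKM, Tnip1 30.0 and 26.5 FPKM and Rnf11 9.52 and 13.5 FPKM, while Tnip3 had 0 and 0.0105 FPKM. Of 10 listed deubiquitinases and A20 partners, 9 reached 1 FPKM in both libraries, against 42.3% of all genes.

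Windows of 250 bases before RefSeq start sites were listed for 9 of the 10 genes, 18 windows in all, since 6 genes had more than 1. The NF-κB consensus, searched on both strands, occurred before Tnfaip3 and Map3k7 and before no other chain gene in these windows, where 3.90% of all 32851 windows held it. Both are printed 5′ to 3′ along the gene from RefSeq on GRCm38.p6, as the chain genes with a match, and capitals mark the matches. The 113 bases at the far end of the Tnfaip3 window, nearly all in an exon of another Tnfaip3 transcript in GENCODE, and the 10 exon bases beside the start site of Map3k7 are left out.
Tnfaip3 upstream window, chr10:19015411-19015547, minus strand: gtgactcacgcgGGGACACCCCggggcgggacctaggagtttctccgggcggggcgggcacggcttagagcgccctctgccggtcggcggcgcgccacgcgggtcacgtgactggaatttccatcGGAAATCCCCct
Map3k7 upstream window, chr4:31963857-31964096, plus strand: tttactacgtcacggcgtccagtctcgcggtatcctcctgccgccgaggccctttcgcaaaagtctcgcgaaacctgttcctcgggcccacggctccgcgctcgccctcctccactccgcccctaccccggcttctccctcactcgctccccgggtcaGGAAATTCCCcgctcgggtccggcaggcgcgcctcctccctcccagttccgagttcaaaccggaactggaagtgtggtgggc
The matches began 125 and 12 bases before the Tnfaip3 start site and 92 bases before that of Map3k7. Tnfaip3 also has TGACTCA, a match to the AP-1 motif TGANTCA, beginning 136 bases before the start site and not overlapping the NF-κB match beside it. TGANTCA occurred in 6.75% of all windows, and among chain genes also in 3 of the 4 windows of Ikbkg. TATAAA, searched on both strands, occurred in 12.4% of windows and in 1 window each of Tnfaip3 and Xiap. A match is a description of the letters and does not show binding.

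In 4 of the 6 pathway lists the median of mean FPKM was above the 5.11 FPKM of the chain, at 10.3 FPKM for ligand supply and receptor cofactors, 16.2 FPKM for ubiquitin ligases and linkers, 7.60 FPKM for kinase partners and 21.5 FPKM for transcription factors. It was lower for deubiquitinases and A20 partners, at 5.04 FPKM, and for NF-κB targets, at 0.640 FPKM. All 13 kinase partners reached 1 FPKM in both libraries, led by Map2k3 at 45.7 and 40.1 FPKM, with Tbk1, an IκB kinase relative, at 15.8 and 18.1 FPKM. Of 13 ubiquitin ligases and linkers 11 did, led by the conjugating enzyme Ube2d3 at 83.0 and 117 FPKM and by Ube2v1 at 54.2 and 51.6 FPKM and Ube2l3 at 48.5 and 55.0 FPKM. The linear ubiquitin complex had Rbck1 at 40.6 and 34.0 FPKM, Sharpin at 21.3 and 19.0 FPKM and Rnf31 at 14.1 and 10.2 FPKM, so each subunit lay above every ligase of the IAP trio in replicate 1, while in replicate 2 Rnf31 lay below Xiap at 12.1 FPKM. Traf2, which carries cIAPs to receptors, had 7.48 and 7.70 FPKM, and Peli3 was the lowest with 0.0347 and 0.107 FPKM. Among genes that supply ligands or assist the receptors 12 of 17 reached 1 FPKM in both libraries. The share over all genes, to be set beside these list counts, was 42.3%. Hsp90ab1, a chaperone, had 293 and 416 FPKM, Rac1, a small GTPase, 123 and 128 FPKM, and Slc15a1, the peptide transporter PEPT1, 115 and 122 FPKM. Slc15a3, a lysosomal peptide transporter, had 0 and 0.0174 FPKM, and Slc46a2 was listed at 0.

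Transcription factors of the NF-κB and AP-1 families, with their inhibitors, were at or above 1 FPKM in both libraries for 11 of 12 genes. Fos had 143 and 132 FPKM, Junb 135 and 123 FPKM and Jun 88.7 and 82.0 FPKM. Rela had 10.5 and 7.44 FPKM and Nfkb1 9.67 and 11.1 FPKM, while Rel was low at 0.408 and 0.533 FPKM. The NF-κB target list was divided, with 7 of 18 genes at 1 FPKM or more in both libraries, a share near the 42.3% of all genes. Nfkbia, the feedback inhibitor IκBα, had 67.9 and 89.9 FPKM, Sod2 17.5 and 19.9 FPKM and Nfkbiz 13.7 and 16.5 FPKM. Cxcl2, a chemokine, had 0 and 0.0415 FPKM, and Ccl2, Cxcl5 and Il6 were listed at 0. The cells were released with EDTA and sorted, and any effect of that on these or the chain's levels was not tested. They are levels after that handling.

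**Figure D2:**
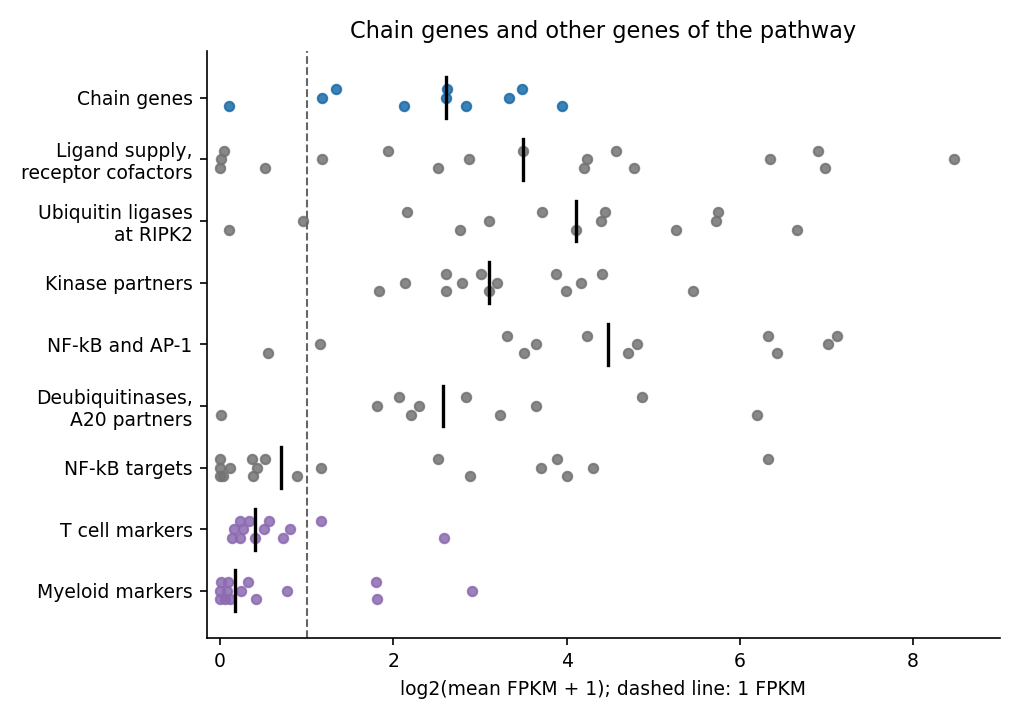
Mean level over both libraries as log2(mean FPKM + 1) for the chain genes (blue), 6 lists of other pathway genes (grey) and 2 lists of leukocyte markers (purple). Each point is a gene, the black tick is the median of the list and the dashed line marks 1 FPKM. The chain's median is 5.11 FPKM, above the NF-κB target list at 0.640 FPKM and below the NF-κB and AP-1 factors at 21.5 FPKM.

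By mean log2(FPKM + 1) the chain ran from Tab2 through Xiap, Birc3, Birc2, Map3k7, Tnfaip3, Ikbkg, Ripk2 and Nod1 down to Nod2. A pair was called separated where the values did not overlap and the difference of means exceeded a limit, the 95th percentile of the absolute library difference among the 200 genes nearest in level. Of the 45 pairs 34 were separated, but only 2 of the 9 neighbouring pairs were. Those were Ikbkg over Ripk2 by 0.78, against a limit of 0.72, and Nod1 over Nod2. The other 7 neighbouring pairs, Ripk2 with Nod1 among them, did not differ beyond this limit. The limit does not use that both genes of a pair were measured in the same 2 libraries. Of the 11 pairs not separated, 7 had values that did not overlap, so those 11 are not shown to be equal. From Tab2 down to Ikbkg no neighbour was separated from the next, although Tab2 and Ikbkg themselves were, by 1.84. The libraries gave the same order by FPKM for 43 pairs and the other order for 2.

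**Figure D3:**
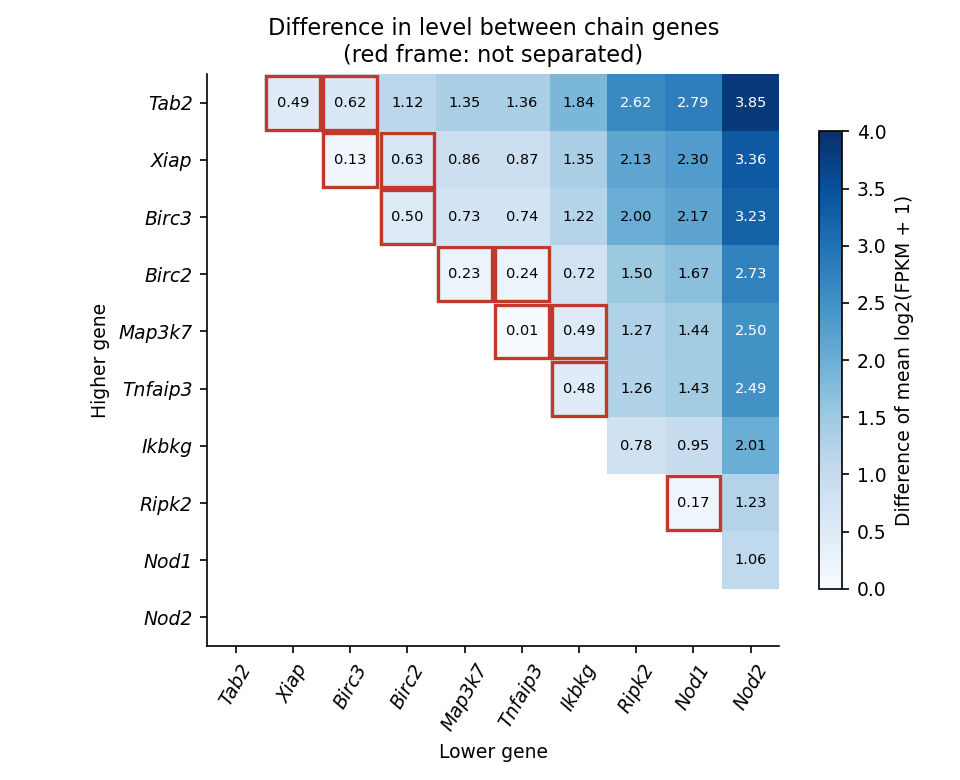
Difference in mean log2(FPKM + 1) between each higher gene (rows) and each lower gene (columns), with genes ordered by level and darker blue for a larger difference. Red frames mark the 11 pairs that were not separated, which lie near the diagonal among the genes from Tab2 to Ikbkg, with Ripk2 and Nod1 as a further pair.

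Between the libraries, 9 of the 10 chain genes were lower in replicate 1 and Nod1 alone was higher, although Tab2 was the other way, at 0.073, with replicate 2 rescaled by the median ratio. Among the 9 chain genes averaging 1 FPKM or more, 8 were lower in replicate 1. Of all 10601 genes averaging 1 FPKM or more, 64.0% were lower in replicate 1 and 36.0% higher, with a median difference of -0.11. The largest differences among chain genes, as replicate 1 minus replicate 2 in log2(FPKM + 1), were those of Xiap at -0.49, Tnfaip3 at -0.49 and Nod1 at 0.45. The smallest were Nod2 at -0.01 and Tab2 at -0.05. All 10 stayed within the limit for genes of their level, which ran from 0.21 to 0.72. By construction about 95% of genes of a given level do so. No chain gene differed by more than 1, where 1.53% of the 10601 genes did.

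Counting error alone was smaller than some of these differences. The ratio of replicate 1 to replicate 2 was 1.77 for Nod1, with a counting interval of 1.34 to 2.35. It was 0.688 for Xiap (0.635 to 0.744) and 0.667 for Tnfaip3 (0.578 to 0.767). For Ripk2 it was 0.835 (0.595 to 1.16) and for Nod2 0.895 (0.236 to 2.97), so at this depth no difference was detectable for either. The intervals hold counting error alone, at an approximate depth. With 2 libraries of 1 group no test of these differences is possible.

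Several measured properties moved with the same difference. Over the genes averaging 1 FPKM or more whose GC content was known, it was higher in transcripts of higher GC content (Spearman's rho = 0.509 across 10206 genes, a description, as genes of 1 library share its preparation). Among chain genes Xiap had the lowest GC content at 36.8% and Nod1 the highest at 57.1%. The median difference was -0.28 over the fifth of genes poorest in GC and 0.15 over the fifth richest in it. After removal of the GC and length trend the difference was -0.31 for Xiap, -0.41 for Tnfaip3 and 0.20 for Nod1. The median over all these genes was -0.11. Over the 9 chain genes averaging 1 FPKM or more, the median was -0.20 before the removal and -0.09 after it. Of these 9, 7 lay below the median of all genes before the removal and 4 after it. Xiap and Ikbkg are X-linked, and 282 X-linked genes had a median of -0.16 against -0.11 for autosomal genes, in libraries that differ in Xist. The X-linked genes were also poorer in GC, with a median of 46.1% against 50.4%. The fifth of all genes with a median GC content of 46.5% had a median difference of -0.21. X linkage apart from GC content was not tested. Epithelial cell types differed as well. All 8 goblet cell markers were higher in replicate 1, with Muc2 at 381 and 142 FPKM, and all 8 stem and proliferation markers were lower in it, with Olfm4 at 259 and 466 FPKM. Of 9 Paneth cell markers 8 were lower in replicate 1, with a median difference of -0.81. The 11 enterocyte markers were divided, 5 higher and 6 lower in replicate 1, with a median of -0.004. Of 13 T cell markers 8 were lower in replicate 1, with Cd3e at 0.193 and 0.329 FPKM and Cd3d at 0.210 and 0.131 FPKM. That share is near the 64.0% above, which covers genes averaging 1 FPKM or more, as only 2 of these markers did. The part of these cell types and of the sex of the libraries in the chain's differences was not tested.

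**Figure D4:**
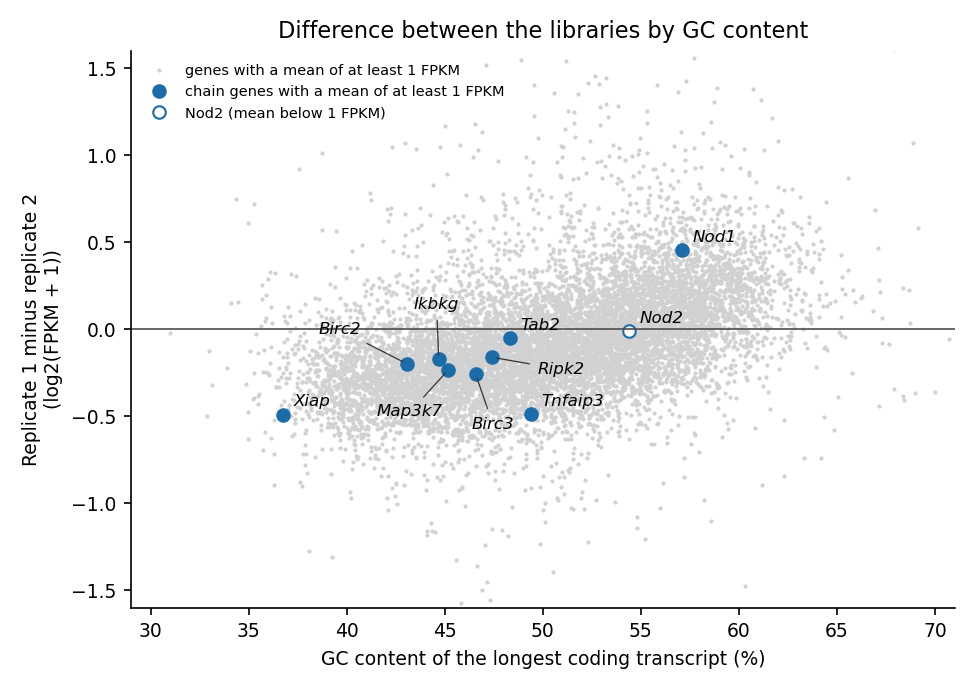
Replicate 1 minus replicate 2 in log2(FPKM + 1) against the GC content of the longest coding transcript, for genes averaging 1 FPKM or more (grey), the 9 chain genes that reach that mean (blue) and Nod2 (open circle). The axes leave out 53 grey genes with larger differences and 4 with more extreme GC content. Xiap sits at the low GC end at -0.49, Nod1 at the high end at 0.45, and Tnfaip3 lies at -0.49 near the middle.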

How the data were processed

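FPKM values were deposited by the authors, 1 per gene symbol in each of 2 libraries; the submitters' processing notes list Cufflinks 2.2.1, TopHat2 2.0.14 and mm10. Annotation, strand setting and the handling of multiply matching reads are not given in the sources used. Of 24384 rows, 27 named by a calendar date were left out. Values were used as log2(FPKM + 1). No test compares the libraries, which form 1 group. Depth was read from FPKM times transcript length less 160 bases in 4260 single-transcript genes, and counting intervals are exact 95% Poisson intervals, or for ratios exact binomial ones, for counting error only. Coordinates, lengths and GC content came from GENCODE M21, built on that assembly, and length and GC content were known for 96.3% of the 10601 genes averaging 1 FPKM or more. To remove the GC and length trend, the median difference of each of 10 by 5 classes was subtracted, and the overall median was added back. Members, lists and the rule for named genes were chosen with earlier results of these data known. The rule takes every chain gene and, from each pathway list, the 3 highest genes, the lowest above 0, those at 0 and genes with a set role in the chain. The result of 1 further list is not reported here. Marker genes are named outside the rule, and Card9 and Ccl20 in the closing section were chosen after their values were seen. The steps for depth, trend and limit were tested on simulated data. Alternatives changed the pseudocount, minimum FPKM, scaling, GC trend, number of genes nearest in level and libraries used. Python 3.11.15 with numpy 2.4.6, pandas 2.3.3, scipy 1.17.1 and matplotlib 3.10.9 was used.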

Additional observations from a re-analysis of the deposited data

How the results depend on the processing

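Of 133 alternative values, 113 kept the sign of the reported value and lay within 1 SD over the libraries of it, or within 1.5 times for counts. With 2 libraries that SD is wide, and a difference from a single library lies within it by construction. For differences between the libraries, 40 of the 113, it is a fixed share of the difference itself. That is a lenient bound: Xiap at -0.49 and, with the trend removed, -0.31 counts as within it. Signs turned in 3: Ripk2 minus Nod1 ranged from -0.14 to 0.48 when 1 library was left out, and the difference between libraries of Tab2 was 0.073 with replicate 2 rescaled by the median ratio and 0.042 with the GC and length trend removed. Smaller pseudocounts, 0.1 and 0.01, gave Nod1 minus Nod2 as 2.93 and 3.89, Birc2 minus Birc3 as -0.56 and -0.56, and Map3k7 minus Tab2 as -1.50 and -1.51. With 5 FPKM as the minimum, 4 chain genes and 5 deubiquitinases or A20 partners passed, where 8 and 9 did at 1 FPKM. The share of all genes at 5 FPKM was not computed, so these counts cannot be read against a background. The median percentile was 58.9 without genes at 0 in both libraries. Among genes averaging 1 FPKM or more it was 35.7, over the 9 chain genes that do so, without Nod2. A fall follows by construction from the narrower background, but a place below the middle of the expressed genes does not. Depth limits Nod2 and Ripk2 most. No paired analysis was possible because there is 1 group.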

Other observations

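Among the other pathway genes, those that differed by more than 1 in log2(FPKM + 1) between the libraries were Card9, an adaptor that works with RIPK2 and is best known from myeloid cells, and Ccl20, a chemokine of the follicle-associated epithelium. Card9 was at 2.25 FPKM in replicate 1 and at 0.263 FPKM in replicate 2, a difference of 1.36. Ccl20 was at 1.52 FPKM and 7.95 FPKM, a difference of -1.83. Both were chosen after their values were seen, and 1.53% of genes averaging 1 FPKM or more differed by more than 1. In the transcription factor list 9 of 11 expressed members were higher in replicate 1, with a median of 0.18, where 36.0% of genes were higher. Lists outside the pathway leaned either way. Of 16 epithelial identity genes 15 were higher in replicate 1, with a median of 0.26, while 8 of 9 Paneth cell markers were lower. The GC and length trend was not removed from these lists, and its part in their direction was not tested.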
